A study of Mus musculus with 6 samples.

Results

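The genes described here are 83 genes of the R2 interval, the centromeric stretch of mouse chromosome 12 that the R2 congenic strain of the study carries from the SM/J strain. They are the genes that the study's supplementary gene table places in R2 and that have at least 1 probe set of their own on the liver array, without 15 R2 genes, among them Iah1, Rrm2, Apob, Lpin1 and Rsad2, that are not described here. The table lists 178 R2 genes; 80 of them have no probe set of their own, mostly predicted genes and small RNAs. The 83 members stand among 18162 genes with a probe set of their own in the whole series. They were chosen by position, but the 15 genes left out by name include genes that the study picked for their RNA level, so the members are not a set independent of the signals, and the counts below describe the genes that remained.

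Liver RNA was measured in male A/J-12SM mice and in male A/J mice, both given a high-fat diet for 7 weeks. The study refers to these liver arrays as earlier work of its authors. Its methods state killing at 13 weeks of age after a fast of 4 h for its own mice. Age and fast are given here from those methods. A/J-12SM is a consomic strain in which chromosome 12 comes from SM/J and the rest of the genome from A/J, so the groups differ in the whole of chromosome 12 and a difference of an R2 gene cannot be told apart from an effect of SM/J sequence elsewhere on that chromosome. Each group has 3 one-colour Affymetrix arrays, and each array holds RNA combined from 3 mice, so that single animals were not measured. The R2 congenic mice themselves have no array here.

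An interval of this kind is what remains of a quantitative trait locus after congenic mapping. All genes in it come with the SM/J allele in the consomic mouse, whether or not they bear on the trait. A gene whose own alleles set its RNA level is said to be regulated in cis, and such genes are usually sought first among those whose RNA differs between the strains. R2 holds genes of very different function, among them a soluble lectin of the complement system (Colec11), the DNA methyltransferase Dnmt3a, the polyamine enzyme Odc1, the small GTPase Rab10, the ribosomal protein gene Rps7 and the transcription regulator Id2.

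Of the 83 members, 81 are annotated on chromosome 12 of the GRCm38.p6 assembly, from 1700012B15Rik, which starts at position 3235791, to Tssc1, which ends at 28867494. The other 2 are not on that chromosome in the assembly: Socs2 is annotated on chromosome 10 and Dnajc8 on chromosome 4, although the study's table lists both in R2. Their values are given with this limit. An older symbol was used in the table for 5 members, whose current names are Rab10os (1700012B15Rik), Ldah (1110057K04Rik), Cyria (Fam49a), Lratd1 (Fam84a) and Eipr1 (Tssc1).

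The values below are log2 signals after quantile normalization, which gives all arrays the same distribution, and a gene is represented by the brightest of its probe sets unless another is named. The array reads a transcript with several short probes, which together make up a probe set. The arrays had trimmed mean signals of 171 to 186 in A/J-12SM and of 201 to 213 in A/J before this step, and the median difference of all probe sets in the deposited values was -0.22 on the log2 scale (A/J-12SM minus A/J, as all differences here). The RNA was that of liver by its markers, since 10 of 10 hepatocyte markers lay above the array median and their summed log2 level was 17.23 to 17.27 in A/J-12SM and 17.17 to 17.24 in A/J. Of 10 Kupffer cell and macrophage markers all had lower values in A/J-12SM, none called, with a summed log2 level of 12.46 to 12.72 in A/J-12SM and 12.62 to 12.95 in A/J. The ratio of the 5' to the 3' actin control was 0.553, 0.561 and 0.423 in the A/J-12SM arrays, so that the third array was the lowest. It was 0.571 to 0.590 in the A/J arrays. The GAPDH control gave 1.48 to 1.55 in A/J-12SM and 1.45 to 1.54 in A/J. The part of RNA quality in any difference below was not tested.

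No member passed the test. A gene was called at an adjusted p under 0.05 from limma, a linear model that pools the spread of probe sets of similar brightness, with Benjamini-Hochberg adjustment over all 45037 probe sets; 0 of 83 members were called by the brightest probe set, and 0 of their 194 probe sets, while 0.0661% of all genes were called (12 of 18162). The lowest adjusted p among the members was 0.265. At an unadjusted p under 0.05 there were 9 members, 6 with higher and 3 with lower values in A/J-12SM, which is 10.8% of the members beside 6.78% of all genes. Socs2, which is not on chromosome 12, is among them, and of the 81 members on chromosome 12 there were 8 (9.88%). No tool that was run called a member: the methods' t-test with the same adjustment also gave 0, with 6 members at an unadjusted p under 0.05.

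Counted without a model, all 3 arrays of one strain lay on one side of all 3 arrays of the other for 13 members, 8 with higher and 5 with lower values in A/J-12SM. This is 15.7% of the members, beside 12.3% of all genes, and of the 81 members on chromosome 12 it was 12 (14.8%). An exact permutation test of 3 arrays against 3 cannot go below 0.1, two-sided. A difference past 0.75 on the log2 scale, the fold limit of the study (above 1.68-fold or below 0.595-fold), was found for 10 members, beside 13.5% of all genes. The median difference of the members was 0.07, beside -0.01 for all genes, and 50 members had higher and 33 lower values in A/J-12SM.

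Brightness sets how much of this can be read. The median SD between replicate arrays was 0.207 (log2) where a probe set reached 5.33, the median log2 signal over the array, and 0.863 where it did not. By their mean over all 6 arrays 49 members were at or above that signal and 34 below it. Of the 49 brighter members, 5 had an unadjusted p under 0.05 (10.2%, beside 7.97% of brighter genes), 9 had strains that did not overlap (18.4%, beside 14%), and 1, Socs2, was past 0.75 (2.04%, beside 1.49%). The 95% interval of the difference lay within 1 on either side of 0, which is a change of 2-fold at most, for 47 of the 49 brighter members, and within 0.5 (1.41-fold) for 23 of them. Only 4 of the 34 dimmer members had an interval within 1 on either side of 0, so for most of these the arrays could not tell a 2-fold change from none.

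**Figure D1:**
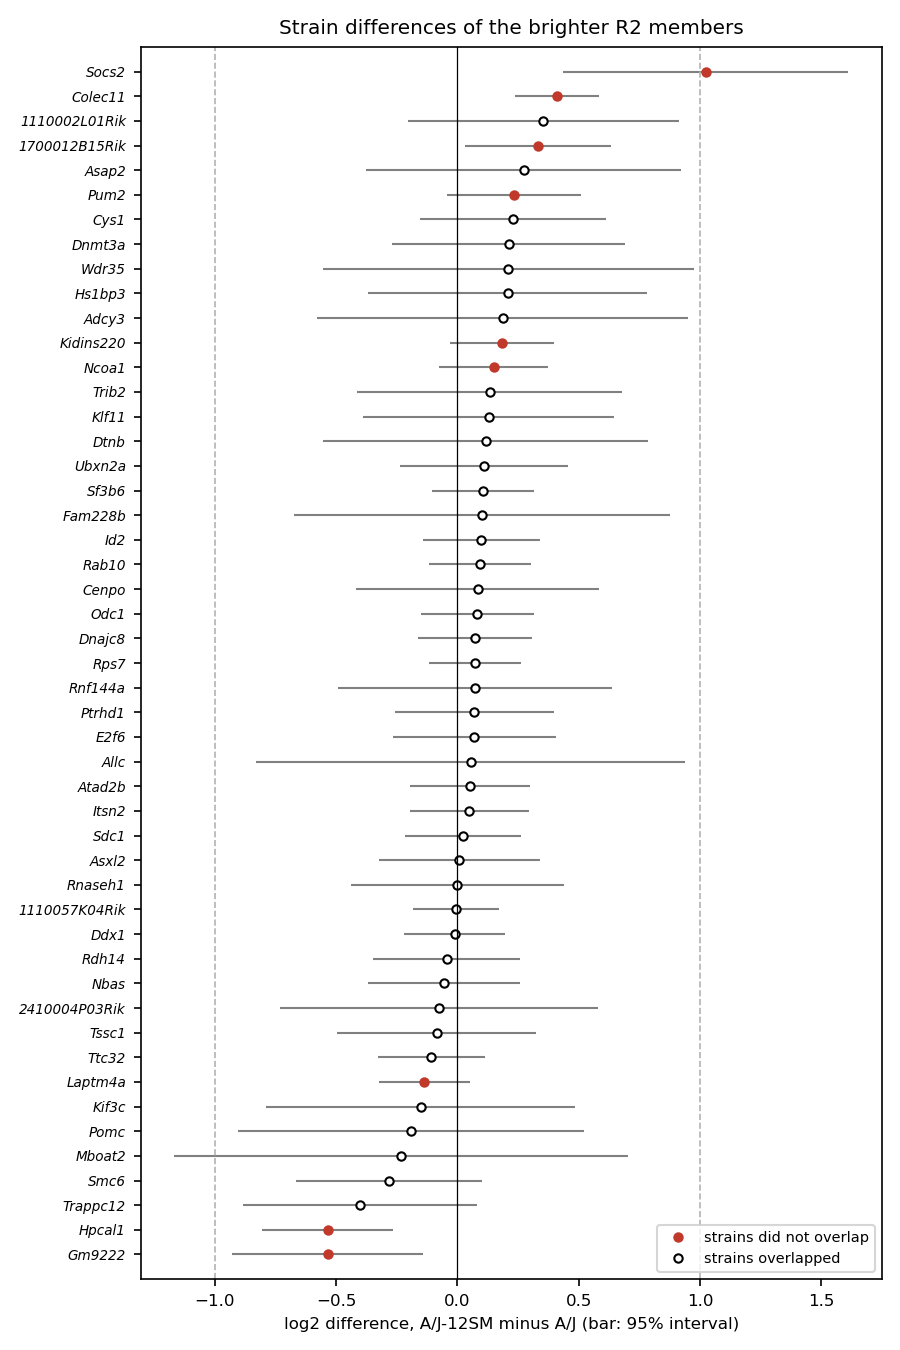
Log2 difference (A/J-12SM minus A/J, x axis) of the 49 members at or above the median signal (y axis, sorted), with bars for the 95% interval from limma and dashed lines at a 2-fold change. Red points are the 9 members whose strains did not overlap, open points the rest; 47 of the 49 bars lie between the dashed lines.

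Colec11 had the lowest p of all members by the brightest probe set. It encodes collectin-11, a soluble C-type lectin that binds sugars on microbes and damaged cells and starts the lectin pathway of complement. The gene lies at chr12:28594172-28623458. Its log2 signal was 10.81, 10.81 and 10.88 in the A/J-12SM arrays, against 10.39, 10.42 and 10.47 in the A/J arrays. The strains did not overlap, and the gap between them was larger than the spread within each (SD 0.04 in A/J-12SM and 0.04 in A/J, n = 3 each). The difference was 0.41 (SE 0.08, 95% interval 0.24 to 0.58), or 1.33-fold, with an unadjusted p of 0.00041 and an adjusted p of 0.265 from limma. In the deposited values without normalization between arrays it was 0.22, with an adjusted p of 0.354. The other Colec11 probe set gave 8.47, 8.53 and 7.98 in A/J-12SM, against 7.92, 7.74 and 8.31 in A/J, a difference of 0.33 (SE 0.19, adjusted p = 0.830 from limma) with overlap of the strains. The brightest is of a kind whose probes may also bind related transcripts, and with probe sets of that kind left out the lowest adjusted p of a member was 0.392, that of Hpcal1.

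Stellate cells of the liver also make Colec11, and some markers of these cells had higher values in A/J-12SM. Of 9 stellate cell and fibroblast markers 8 had higher values, 0 were called, and 2 had an unadjusted p under 0.05 from limma, Reln (0.46) and Lum (0.64). Their summed log2 level was 12.54 to 12.73 in A/J-12SM and 12.32 to 12.56 in A/J. Gfap had the largest difference of these markers, 0.68 (SE 0.35), with overlap of the strains. Rgs5 differed by 0.20 (SE 0.12), and Lrat, Dcn and Col1a1 by 0.02, 0.02 and 0.01. Des differed by 0.03 with an SE of 0.78, so its value is not precise, and Col3a1 was the marker with a lower value (-0.21, SE 0.20). The part of these cells in the Colec11 value was not tested, and in whole liver more cells of a type and more RNA per cell cannot be told apart.

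None of the other genes of the lectin pathway was called. Of 8 measured genes 4 had higher and 4 lower values, and their median difference was -0.04. Mbl1, a mannose-binding lectin, had log2 signals of 11.62, 11.88 and 11.62 in A/J-12SM, against 11.93, 12.06 and 11.92 in A/J. Its difference of -0.26 (SE 0.10, adjusted p = 0.751 from limma) ran opposite to that of Colec11, without overlap of the strains. C2, the complement component cut by the lectin-bound proteases, differed by 0.17 (SE 0.12), and the protease genes Masp1 and Masp2 by 0.05 and -0.13.

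Hpcal1 was the brighter member with the lowest p among those lower in A/J-12SM. It encodes a calcium-binding protein of the neuronal calcium sensor family and lies at chr12:17690750-17791944. Its single probe set gave 7.84, 7.81 and 7.97 in A/J-12SM, against 8.26, 8.55 and 8.42 in A/J. The highest A/J-12SM array was below the lowest A/J array. The difference was -0.53 (SE 0.12, 95% interval -0.80 to -0.26), or 0.691-fold, with an unadjusted p of 0.0014 and an adjusted p of 0.392 from limma. In the deposited values without normalization between arrays it was -0.76, with an adjusted p of 0.0546.

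The next gene of the interval by start position, Gm9222, is a predicted gene with no stated role and lies at chr12:17881552-17939655. It gave 6.52, 6.26 and 6.62 in A/J-12SM, against 6.96, 7.13 and 6.91 in A/J. The difference was -0.53 (SE 0.18, adjusted p = 0.678 from limma), also without overlap. In the deposited values it was -0.77. Its other, dimmer probe set gave 0.21 (SE 0.42), so that the mean over both was -0.16, and both are of a kind whose probes may also bind related transcripts, so the value may not be that of Gm9222 alone.

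Colec11 and Hpcal1 are the members on chromosome 12 with the lowest p in each direction by the brightest probe set, and the stretches around their start sites differ in base composition. The promoters below run from 250 bases before to 50 after 1 start of each gene in the GRCm38.p6 RefSeq annotation, written 5' to 3' on the strand of the gene. For both genes this start lies inside the gene span given above and is not its outermost start. That reference is neither A/J nor SM/J, so no strain difference can be read from them. Capitals mark the GC box, GGGCGG or its complement CCGCCC, the binding sequence of the Sp factors, searched on both strands. The TATA box (TATAAA), the CCAAT box (the letters of its name) and the E-box (CACGTG) were searched in the same way.
Colec11 promoter, chr12:28623281-28623580, minus strand: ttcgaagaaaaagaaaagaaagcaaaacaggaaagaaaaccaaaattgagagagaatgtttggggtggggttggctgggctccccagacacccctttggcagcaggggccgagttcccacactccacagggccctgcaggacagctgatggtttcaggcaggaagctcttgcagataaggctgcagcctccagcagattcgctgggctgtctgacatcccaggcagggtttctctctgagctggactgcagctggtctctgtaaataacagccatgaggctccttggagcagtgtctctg
Hpcal1 promoter, chr12:17690559-17690858, plus strand: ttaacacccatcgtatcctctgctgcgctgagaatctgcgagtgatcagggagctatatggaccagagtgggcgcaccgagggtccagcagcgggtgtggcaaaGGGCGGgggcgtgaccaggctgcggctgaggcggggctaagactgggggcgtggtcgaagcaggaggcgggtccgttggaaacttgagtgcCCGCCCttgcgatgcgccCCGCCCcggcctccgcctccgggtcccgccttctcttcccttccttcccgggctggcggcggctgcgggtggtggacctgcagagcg
The Colec11 stretch holds none of the 4 motifs, and its ratio of observed to expected CG pairs is 0.139. The Hpcal1 stretch holds 3 GC boxes and has a ratio of 0.781. Of all 32851 such promoter stretches of the annotation, 35.7% hold a GC box and the median ratio is 0.384. Of 91 stretches that belong to 75 of the members 64.8% hold one, with a median ratio of 0.744. These sets are unlike, since the 32851 stretches belong to 27025 genes, more than have a probe set of their own, while every member has one. Whether the shares differ between like sets was not tested. A match describes the letters and is not evidence of a bound factor.

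Socs2, a feedback inhibitor of growth hormone signalling, had the largest difference of the brighter members, but it is the member annotated on chromosome 10 (chr10:95383903-95417321). Its log2 signal was 9.44, 8.58 and 8.30 in A/J-12SM, against 7.92, 7.90 and 7.43 in A/J. All A/J-12SM arrays were above all A/J arrays, with 1 A/J-12SM array well above the other two. The difference was 1.02 (SE 0.26, 95% interval 0.43 to 1.61), or 2.03-fold, with an adjusted p of 0.485 from limma. Of its 6 probe sets 5 had higher values in A/J-12SM, and the second brightest gave 8.66, 8.26 and 7.63 in A/J-12SM, against 7.06, 7.26 and 6.92 in A/J, a difference of 1.10 (SE 0.23). Without the first A/J-12SM array the difference of the brightest was 0.69.

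**Figure D2:**
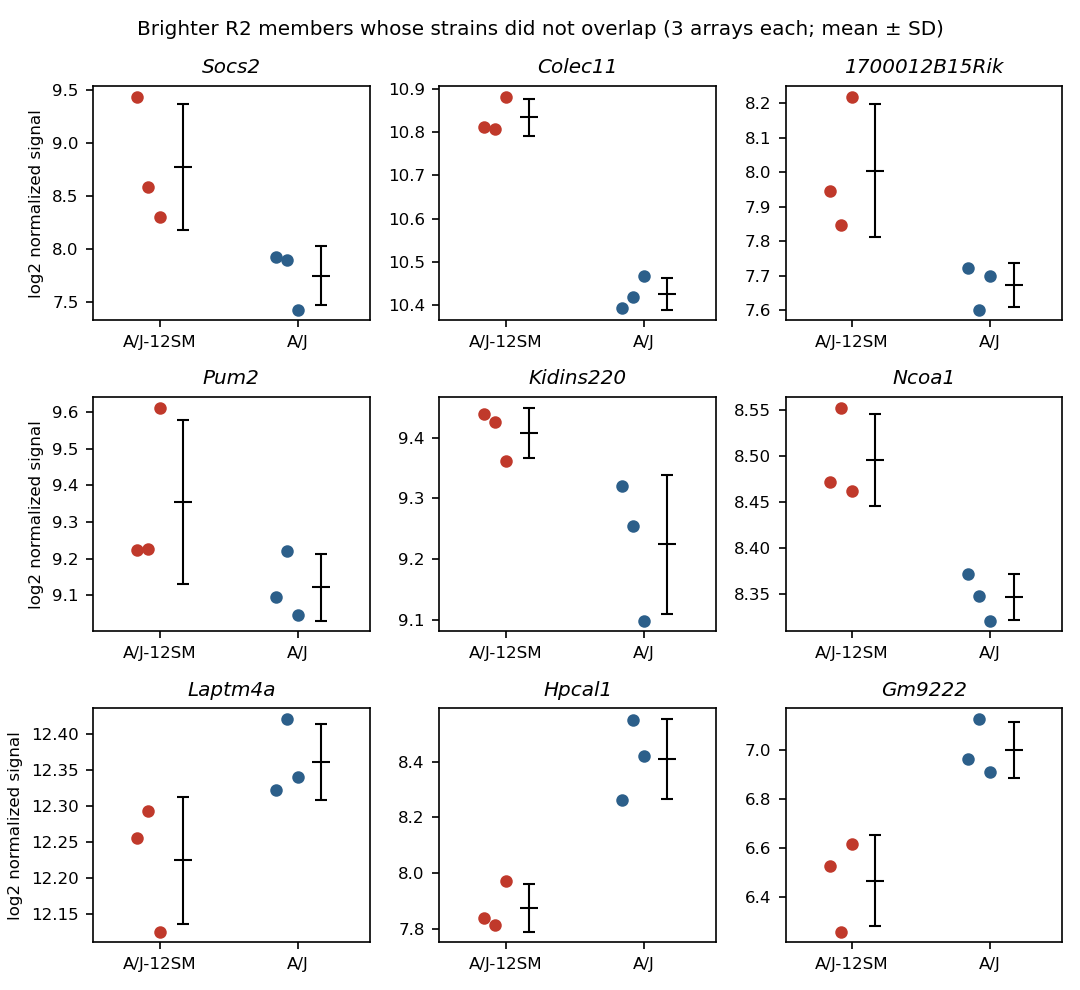
Log2 normalized signal (y axis) of the 9 brighter members whose strains did not overlap, for A/J-12SM (red) and A/J (blue), 1 point per array with the mean and SD of 3 arrays beside the points. Each panel has its own scale; 6 members lie higher in A/J-12SM and 3 lower, and Socs2 shows the widest gap of the means (1.02).

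The other 5 brighter members without overlap differed by less, and their values moved with the normalization, since the median of all genes lay at -0.22 in the deposited values. At the centromeric end of the interval 1700012B15Rik, a long non-coding RNA gene that overlaps Rab10 and is now named as its opposite-strand transcript, gave 7.95, 7.85 and 8.22 in A/J-12SM, against 7.72, 7.60 and 7.70 in A/J. The difference was 0.33 (SE 0.13, adjusted p = 0.788 from limma), and 0.10 in the deposited values. Its second probe set also gave 0.33 (SE 0.22), but with overlap of the strains. Rab10 itself gave 9.53, 9.51 and 9.68 in A/J-12SM, against 9.44, 9.43 and 9.58 in A/J, with overlap and a difference of 0.09 (95% interval -0.12 to 0.30).

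Pum2, an RNA-binding repressor of translation, had 9.23, 9.23 and 9.61 in A/J-12SM, against 9.10, 9.22 and 9.05 in A/J, and its 4 probe sets all had higher values in A/J-12SM, from 0.10 to 0.40. Its strains overlapped in all but the brightest of these, where the lowest A/J-12SM array was barely above the highest A/J array. That difference was 0.23 (SE 0.12), but 0.11 without the third A/J-12SM array and 0.01 in the deposited values. Kidins220, a membrane scaffold of neurotrophin signalling, had 9.44, 9.43 and 9.36 in A/J-12SM, against 9.32, 9.25 and 9.10 in A/J, a difference of 0.18, which was 0.12 without the third A/J array and -0.04 in the deposited values. Its dimmer probe sets went both ways, from -0.57 to 0.49.

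Ncoa1, a coactivator of nuclear receptors, had 8.47, 8.55 and 8.46 in A/J-12SM, against 8.37, 8.35 and 8.32 in A/J, a difference of 0.15 (SE 0.10, adjusted p = 0.854 from limma). The sign turned in the deposited values (-0.08) and in the mean over its 3 probe sets (-0.19), of which the others gave 0.34 (SE 0.17) and, at a dim signal, -1.06 (SE 1.01), both with overlap. Laptm4a, a membrane protein of late endosomes and lysosomes and among the brightest members, had 12.26, 12.29 and 12.12 in A/J-12SM, against 12.32, 12.42 and 12.34 in A/J. Its difference of -0.14 (95% interval -0.32 to 0.05) was the smallest in size among the 9 brighter members without overlap, and it was -0.08 without the third A/J-12SM array and -0.27 in the deposited values.

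Among the 13 members of chromatin and transcription 0 were called and 2 had an unadjusted p under 0.05 (15.4%, beside 6.78% of all genes). In A/J-12SM 11 had higher and 2 lower values, beside 50 and 33 of all members, with a median difference of 0.10. Whether the group differs from others was not tested. Both low-p members were dim. Greb1, known as an oestrogen-induced gene, gave 5.04, 5.47 and 5.97 in A/J-12SM, against 4.96, 3.07 and 3.0 in A/J. Its difference was 1.82 (SE 0.59, 95% interval 0.50 to 3.14, adjusted p = 0.663 from limma), the strains did not overlap, and its 4 probe sets all had higher values in A/J-12SM, between 0.75 and 1.82. The strains overlapped in all but the brightest of these, and the others had mean log2 signals of 2.09 to 3.09. Msgn1, a transcription factor of the early mesoderm, gave 5.66, 4.49 and 6.34 in A/J-12SM, against 3.47, 5.12 and 2.98 in A/J, so that the strains overlapped despite a difference of 1.64 (SE 0.65).

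The brightest member of this group was Id2, a helix-loop-helix protein that blocks the binding of other factors to DNA. It gave 12.13, 12.28 and 12.21 in A/J-12SM, against 12.12, 12.31 and 11.90 in A/J, a difference of 0.10 (95% interval -0.14 to 0.34). Atad2b, a bromodomain protein, differed by 0.05 (95% interval -0.19 to 0.30). Dnmt3a, which sets new methyl marks on DNA, differed by 0.21 (SE 0.21, adjusted p = 0.902 from limma), and all 5 of its probe sets had higher values in A/J-12SM, from 0.12 to 1.11, none with an unadjusted p under 0.05. Of 7 other DNA methylation genes none was called, and the maintenance enzyme Dnmt1 differed by -0.28 (SE 0.16) and Dnmt3b by -0.09.

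Of the 4 members of DNA repair and cell division 0 were called. Smc6, a core subunit of the SMC5/6 complex that helps to resolve joined chromosomes, gave 8.12, 8.08 and 7.53 in A/J-12SM, against 8.03, 8.25 and 8.29 in A/J by its brightest probe set. The strains overlapped and the difference was -0.28 (SE 0.17, adjusted p = 0.835 from limma), but -0.09 without the third A/J-12SM array and -0.52 in the deposited values. Of its 6 probe sets 5 had lower values in A/J-12SM, and 2 of these had an unadjusted p under 0.05 without overlap. One gave 7.90, 7.54 and 7.31 in A/J-12SM, against 8.17, 7.93 and 8.19 in A/J (difference -0.51), and the other 7.04, 6.96 and 6.79 in A/J-12SM, against 7.31, 7.28 and 7.38 in A/J (difference -0.39). Another bright probe set differed by -0.10.

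None of 8 partners of Smc6 was called. Nsmce1 and Nsmce3, which form a subcomplex with ubiquitin ligase activity, differed by 0.12 (SE 0.12) and -0.16 (SE 0.20), and Smc5, the other core subunit, by -0.04. Gen1, a resolvase of Holliday junctions that lies next to Smc6, was dim and gave 4.65, 5.24 and 4.73 in A/J-12SM, against 4.15, 3.99 and 4.22 in A/J, without overlap and with a difference of 0.75 (SE 0.42). Rnaseh1, which removes RNA from RNA-DNA hybrids, was the brightest after Smc6 and had the same mean of 6.53 in A/J-12SM and in A/J (95% interval of the difference -0.44 to 0.44).

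The members of RNA processing and translation had small differences, and 6 of the 7 were among the brighter members. Of the 7, 0 were called and 0 had an unadjusted p under 0.05, and their differences ran from -0.14 to 0.23. Rps7, a protein of the small ribosomal subunit and the brightest member, gave 12.71, 12.70 and 12.84 in A/J-12SM, against 12.60, 12.69 and 12.74 in A/J, with an interval of -0.12 to 0.26. Sf3b6, a subunit of the SF3b complex that recognises the branch point of introns, gave 10.30, 10.31 and 10.51 in A/J-12SM, against 10.18, 10.29 and 10.34 in A/J (difference 0.10). Of 6 other SF3b subunits none was called, and Sf3b3 and Sf3b4 differed most, by -0.20 (SE 0.18) and -0.18 (SE 0.16). Dnajc8, a splicing-associated chaperone annotated on chromosome 4, differed by 0.07.

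Of 14 members of membrane traffic and the cytoskeleton 0 were called and 0 had an unadjusted p under 0.05, and 8 had higher and 6 lower values. Ubxn2a, a cofactor of the p97 ATPase, was the brightest after Laptm4a and differed by 0.11 (95% interval -0.24 to 0.45). Trappc12, a subunit of a vesicle tethering complex, had the largest difference of the brighter ones in this group, with 7.01, 6.87 and 6.30 in A/J-12SM, against 6.91, 7.31 and 7.18 in A/J (difference -0.40, SE 0.22). Of 9 genes that regulate RAB10 or are its near relatives none was called, 3 had higher and 6 lower values, and their summed log2 level was 11.02 to 11.20 in A/J-12SM and 11.21 to 11.34 in A/J. Rab13 and Mical3, a small GTPase and an effector of such GTPases, differed by -0.32 (SE 0.15) and -0.27 (SE 0.24).

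Of the 11 signalling genes 0 were called and 4 had an unadjusted p under 0.05, which is 36.4% beside 6.78% of all genes, and whether the group differs from others was not tested. Besides Hpcal1 and Socs2, which is not on chromosome 12, these were Fkbp1b and Efr3b, both dim and opposite in direction. Fkbp1b, which binds and steadies intracellular calcium channels, gave 3.06, 0.36 and 3.79 in A/J-12SM, against 5.00, 4.30 and 4.77 in A/J. The strains did not overlap, but 1 A/J-12SM array was far below the other two, and the difference of -2.29 (SE 0.87, adjusted p = 0.759 from limma) was -1.26 without that array. Efr3b, a membrane anchor of a lipid kinase, gave 4.22, 5.04 and 5.05 in A/J-12SM, against 1.23, 4.82 and 1.76 in A/J, with overlap and a difference of 2.16 (SE 0.90) by 1 of its probe sets and 0.00 by the other.

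The metabolic enzymes and transporters, 8 members, had 0 called and 0 at an unadjusted p under 0.05. 1110057K04Rik, now Ldah, a hydrolase of the lipid droplet surface, gave 10.38, 10.38 and 10.39 in A/J-12SM, against 10.34, 10.46 and 10.36 in A/J. The difference was -0.00 with a 95% interval of -0.18 to 0.17, the tightest of the enzymes here. Odc1, which makes putrescine in the first step of polyamine synthesis, gave 10.43, 10.32 and 10.68 in A/J-12SM, against 10.39, 10.33 and 10.46 in A/J (difference 0.08, 95% interval -0.15 to 0.31), and its 3 probe sets all lay between 0.08 and 0.12. Of 6 other measured genes of polyamine metabolism none was called. Azin1, the inhibitor of the antizyme that targets Odc1 protein for breakdown, gave 10.46, 10.54 and 10.62 in A/J-12SM, against 10.29, 10.25 and 10.26 in A/J, without overlap and with a difference of 0.27 (SE 0.08, adjusted p = 0.622 from limma). Smox, which oxidises spermine, differed by 0.36 (SE 0.23).

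Sdc1, the heparan sulfate proteoglycan that takes up lipoprotein remnants in liver, gave 11.46, 11.60 and 11.84 in A/J-12SM, against 11.66, 11.51 and 11.67 in A/J, with overlap and a difference of 0.02 (95% interval -0.22 to 0.26). Matn3, a cartilage matrix protein and the third member of the secreted and surface group with Colec11, was dim and differed by -0.95 (SE 0.69). The potassium channel subunits Kcnf1 and Kcns3 were both dim. Kcnf1 gave 2.68, 4.67 and 4.70 in A/J-12SM, against 5.36, 5.26 and 4.75 in A/J, without overlap and with a difference of -1.11 (SE 0.59). It was -0.44 without the first A/J-12SM array, which was far below the other two, and the other Kcnf1 probe set, dimmer still, gave 0.73 (SE 1.11). Kcns3 differed by 0.12 (SE 0.72). Of the 21 members given no role here 2, Gm9222 and 1700012B15Rik, had an unadjusted p under 0.05 (9.52%, beside 6.78% of all genes), and 14 of the 21 were below the median signal.

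Fkbp1b, Allc, Ntsr2, Nt5c1b and Pfn4 are members that the study also took up in epididymal fat. On its fat arrays Fkbp1b, Allc, Nt5c1b and Pfn4 were lower in A/J-12SM and Ntsr2 was higher. When the study measured these genes again by RT-PCR in A/J and A/J-12SM, only Ntsr2 differed significantly. In its RT-PCR with the congenic strains Ntsr2 showed no more than a tendency to higher levels in A/J-12SM and R2. Zfp125, the R2 gene that the study kept as a candidate from fat, has no probe set of its own here. In liver none of the members named was called. Allc, allantoicase, gave 5.18, 5.77 and 5.72 in A/J-12SM, against 6.12, 5.70 and 4.68 in A/J, and differed by 0.05 (95% interval -0.83 to 0.94). Ntsr2, a neurotensin receptor, gave 5.22, 4.43 and 4.55 in A/J-12SM, against 4.38, 4.79 and 4.70 in A/J, and differed by 0.11 (95% interval -0.80 to 1.02). Both overlapped between strains and lay near or below the median signal. Nt5c1b, a nucleotidase, and Pfn4, a profilin, were dimmer still, with differences of 1.13 (95% interval -0.99 to 3.25) and 0.59 (95% interval -1.76 to 2.95).

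Different probe sets of one member did not always give one answer. Of 56 members with more than 1 probe set, 23 had all probe sets on the same side of 0, and of 27 with more than 1 bright probe set 16 did. Beyond the genes above, Ldah had 1 probe set at 9.28, 9.44 and 9.35 in A/J-12SM, against 8.92, 9.08 and 9.10 in A/J (difference 0.32, unadjusted p of 0.0086 from limma), while its brightest showed no such gap and another gave -0.38 without overlap in the other direction. Rnf144a, an E3 ubiquitin ligase singled out after its values were seen, had a second probe set nearly as bright as the first at 6.86, 7.14 and 7.23 in A/J-12SM, against 6.18, 6.70 and 6.23 in A/J (difference 0.70, SE 0.20, adjusted p = 0.60 from limma), beside 0.07 for the first.

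Cenpo, a centromere protein, ranged from -0.22 to 1.89 over 6 probe sets, Adcy3, an adenylyl cyclase that overlaps it, from -1.03 to 0.19 over 4, and Sox11, a transcription factor of neural development, from -2.28 to 1.04 over 6. In these 3 genes every probe set with an unadjusted p under 0.05 was dim. Probe sequences were not used here, and whether the strains differ in the bases under these probes was not tested.

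**Figure D3:**
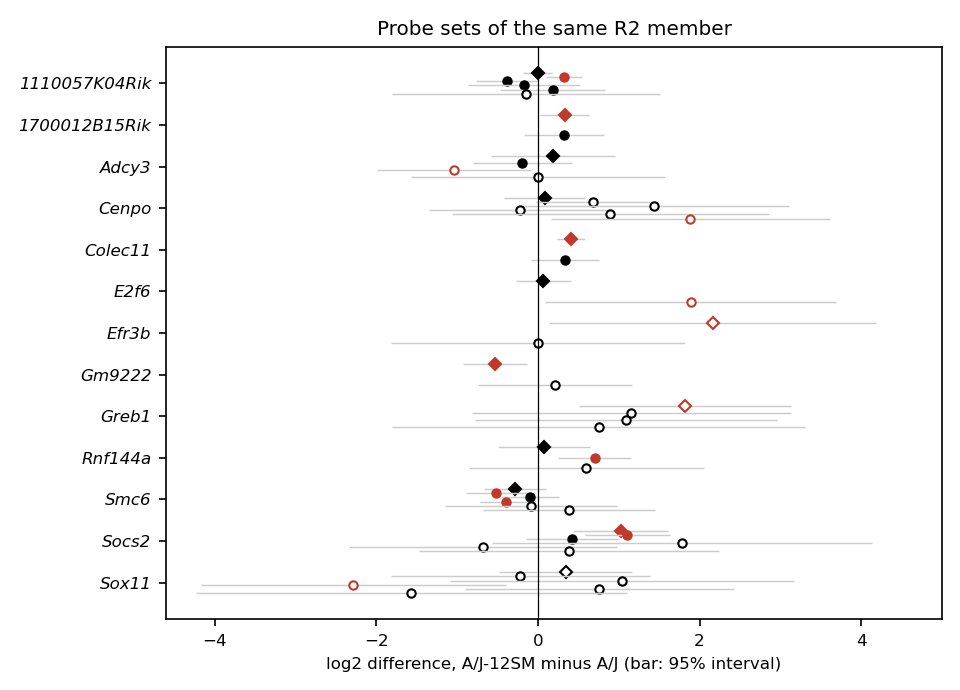
Log2 difference (A/J-12SM minus A/J, x axis) of every probe set of the 13 members (y axis) that have more than 1 probe set and at least 1 with an unadjusted p under 0.05 from limma (red). Diamonds are the brightest probe set, filled symbols those at or above the median signal, and bars the 95% interval; the 2 Colec11 probe sets lie together at 0.41 and 0.33, while those of Sox11 reach from -2.28 to 1.04.

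With the 81 members on chromosome 12 put in order of position and cut into 3 groups of 27, the median difference was 0.10 in the proximal group, 0.02 in the middle and 0.05 in the distal group. In the proximal group 20 members had higher and 7 lower values, and in each of the others 14 had higher and 13 lower values. An unadjusted p under 0.05 was found for 3, 2 and 3 members of these groups. The largest differences came from dim members in each of them.

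**Figure D4:**
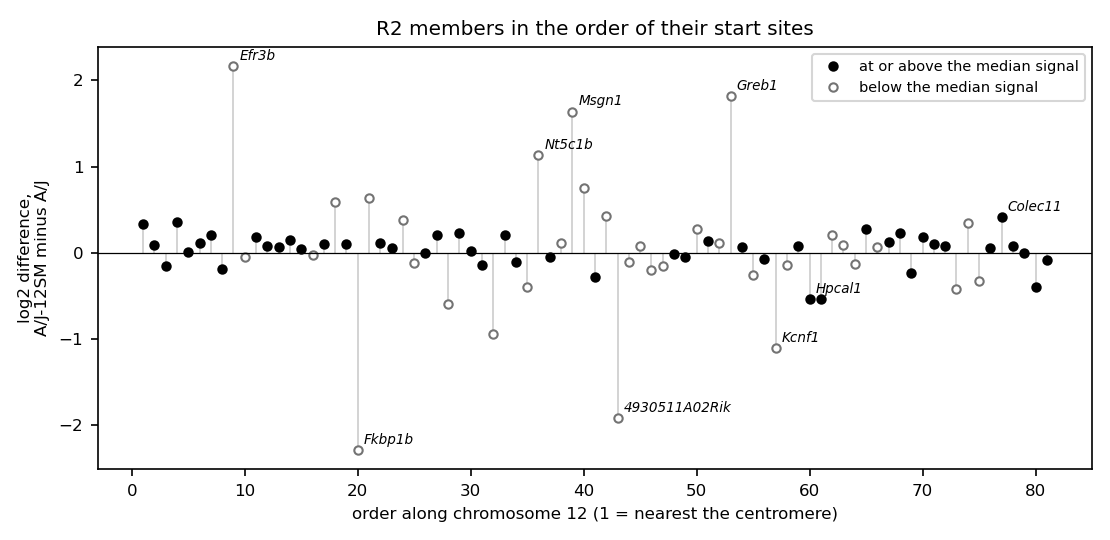
Log2 difference (A/J-12SM minus A/J, y axis) of the 81 members on chromosome 12 in the order of their start sites (x axis), filled where the mean log2 signal is 5.33 or more, the median over the array, and open where it is less. Differences beyond 1 in size belong to open points, and filled points lie between -0.53 and 0.41.

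The members were also set beside other genes. The share with an unadjusted p under 0.05 was 10.8% for the members and 9.88% for the 81 of them on chromosome 12. It was 14.5% for 470 other genes of chromosome 12, 6.90% for 58 genes of the neighbouring R3 interval and 6.78% for all genes. The 470 are those not matched to the study's list of R2 and R3 genes, and their position was not used. For the 15 R2 genes that were left out the share was 60.0% (9 of 15, with 2 called). The median size of the difference was 0.15 for the members, 0.22 for the other chromosome 12 genes and 0.20 for all genes. These are descriptions, and whether the sets differ was not tested.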

How the data were processed

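Liver RNA of 3 arrays of A/J-12SM and 3 of A/J mice was analysed, grouped by the labels. The authors deposited intensity values, linear MAS5 signals; version and scaling are not stated in the sources used here. Because array levels differed by strain, log2 signals were quantile normalized, which would also remove a true overall difference. Strains were compared by linear models with moderated variances following brightness (limma 3.58.1, R 4.3.3) over 45037 probe sets after 64 controls were left out, with Benjamini-Hochberg adjustment. Of these probe sets 34945 carry 1 gene, 932 several and 9160 none in the platform annotation; names were updated through GRCm38.p6, which matched 34943. Intervals are 95% intervals from limma. The number of arrays limits the precision. The labels call arrays replicates, and p-values measure the spread between pooled samples.

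Members and lists were chosen with earlier results of these data known. The genes named are members called by any probe set; up to 12 without overlap, and those past 0.75, where the brighter strain reached the median signal; 5 genes of the study's fat analysis; the 2 brightest of each role; up to 5 whose probe sets differ in sign; and 2 of each partner list. Other genes were named after their values were seen. Alternatives were other normalizations, an offset of 9.2, a filter on dim probe sets, other probe set rules, other tests and leaving out each array. The limma step was tested on simulated data. Python 3.11.15 and matplotlib 3.10.9 made the figures.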

Additional observations from a re-analysis of the deposited data

How the results depend on the processing

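No member was called under any of the 16 alternatives of the count of calls, or with the 81 members on chromosome 12 alone; the lowest adjusted p of a member over these fits was 0.0546 (Hpcal1 in the deposited values) and 0.174 with the replicate block. The replicate numbers of the labels do not pair the arrays (correlations of the deviations -0.01, 0.01 and 0.03), and with the replicate block 0 members and 14 genes in all were called, beside 0 and 12 without it. Members past 0.75 were 10 of 83, but 5 after an offset was added and 2 of 58 with dim probe sets left out. With the offset this was 6.02% of the members, beside 3.20% of all genes. With dim probe sets left out it was 3.45%, beside 2.94%. With Socs2 and Dnajc8, which are not on chromosome 12, counted, the members had the larger share under both changes. Socs2 was 1 of the 2 members past 0.75 with dim probe sets left out. These shares were not computed for the members on chromosome 12 alone. Without these changes the share of the members was below the 13.5% of all genes. Leaving out each array gave 10 to 15, a larger share than that of all genes only without the first or the third A/J array. Whether these shares differ was not tested. Members without overlap were 17 to 23 of 83 when an array was left out, where fewer arrays are compared. This is 20.5 to 27.7% of the members, beside 19.9 to 24.2% of all genes. The median difference was 0.04 to 0.10 without 1 array.

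In the deposited values, where the median of all genes is -0.22, the median of the members was -0.16, 0.07 above that of all genes, and 17 members had higher and 66 lower values, against 50 and 33 after normalization. There the signs turned for Kidins220 (-0.043), Ncoa1 (-0.078), Ntsr2 (-0.12), Allc (-0.17), Rps7 (-0.037), Sf3b6 (-0.11), Id2 (-0.047), Atad2b (-0.16), Ubxn2a (-0.11), Odc1 (-0.12), Kcns3 (-0.10), Sdc1 (-0.15), Cenpo (-0.16) and Adcy3 (-0.053). When all probe sets of a gene were averaged they turned for Kidins220 (-0.030), Ncoa1 (-0.19), Sf3b6 (-0.061), Id2 (-0.035), Kcns3 (-0.0045), Sdc1 (-0.010), Sox11 (-0.32) and Adcy3 (-0.26). Without probe sets whose probes can match several transcripts they turned for Sdc1 (-0.018), Sox11 (-0.22) and Adcy3 (-0.19), and with arrays centred on their median for 1110057K04Rik (0.027). The cause was not tested. Leaving out each array turned the sign of 13 named members, with ranges of -0.35 to 0.36 for Allc, -0.13 to 0.26 for Ntsr2, -0.11 to 0.42 for Kcns3, -0.10 to 0.13 for Rnaseh1, -0.079 to 0.23 for Ubxn2a, -0.016 to 0.16 for Odc1, -0.082 to 0.11 for Sdc1, -0.012 to 0.14 for Atad2b, -0.027 to 0.031 for 1110057K04Rik, -0.0021 to 0.13 for Cenpo, -0.033 to 0.58 for Adcy3, -0.056 to 1.63 for Pfn4 and -0.0055 to 0.20 for Id2. Of 31 named members 13 kept their direction under every alternative run for them, among them Colec11 (0.22 in the deposited values to 0.46 with arrays centred on their median), Hpcal1 (-0.76 to -0.47), Socs2 (0.67 to 1.26), Smc6 (-0.52 to -0.09) and Greb1 (1.16 to 2.44). Signals near background limit the dimmer members.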
